A study of Mus musculus with 4 samples.

Results

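Carboxylesterases (Ces), UDP-glycosyltransferases (Ugt) and cytochromes P450 (Cyp) are the main enzyme families with which the liver alters and clears drugs, toxins, steroids, bile acids and bilirubin. The genes described here are the protein-coding genes of the mouse whose symbol is Ces, Ugt or Cyp followed by a digit, with the peaks of H3K27me3 that lie in them or within 2000 bp. The rule found 140 of 21896 protein-coding RefSeq genes: 19 Ces, 22 Ugt and 99 Cyp genes. At them lay 27 of the 9866 peaks of control cells and 34 of the 16091 peaks of irradiated cells, each peak counted once. The families were chosen on the presence of peaks in these lists, so their counts are a description and were not tested.

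The study used GL261, a cell line from a mouse glioblastoma, and sequenced DNA precipitated with an antibody against H3K27me3 (ChIP-seq), which is trimethyl lysine 27 on the tail of histone H3. Control and irradiated cells gave 1 H3K27me3 library each, and each had a matching input library, of chromatin DNA that was not precipitated, which was not analysed here by itself. Irradiated stands for the label IR, following the series title; neither a dose nor a time after it is stated in the sources used here. Each group had 1 library, so replicate error is unknown, the conditions were not tested against each other, and all intervals (exact, 95%) cover counting error only. The intervals also treat genes and peaks as independent, which overlapping genes that share peaks are not, so they can be too narrow.

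Carboxylesterases hydrolyse esters and amides, and P450 enzymes oxidise their substrates with electrons from a reductase; both belong to the first phase of detoxification. Ugt enzymes then attach a sugar, mostly glucuronic acid, so that the product can be excreted. Most of these genes lie in tandem clusters of similar copies and are most active in liver, intestine and kidney, while single members make steroid hormones, break down retinoids or hydroxylate cholesterol in the brain. H3K27me3 is the mark that Polycomb repressive complex places on silent genes, in mammals above all at promoters rich in CpG dinucleotides. Transcripts were not measured, so whether the genes were silent in GL261 is not shown by these lists.

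Peaks met the promoter window of few of these genes, and the windows that a peak covered most are shown first. RefSeq (GRCm38.p6) promoter windows of 300 bases, from 250 before to 50 after a start, were matched to 112 of the 140 genes. A control peak met the window of 2 of the 112 genes (Ces1e and Cyp3a41a) and an irradiated peak that of 4 (Ugt1a1, Ces1a, Cyp4f40 and Cyp4f15), against 0.229% and 0.446% of all 17491 protein-coding genes with such a window. Capitals mark the bases under the peak: an irradiated peak at Ugt1a1, Ces1a and Cyp4f40, and a control peak at Ces1e.
Ugt1a1, chr1:88211709-88212008, plus strand: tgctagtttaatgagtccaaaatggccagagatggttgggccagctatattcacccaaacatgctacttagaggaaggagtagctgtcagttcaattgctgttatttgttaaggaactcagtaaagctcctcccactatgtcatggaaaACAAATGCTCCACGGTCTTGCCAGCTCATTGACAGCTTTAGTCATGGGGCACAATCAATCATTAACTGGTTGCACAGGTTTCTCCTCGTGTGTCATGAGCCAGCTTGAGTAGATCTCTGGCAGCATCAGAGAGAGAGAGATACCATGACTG
Ces1a, chr8:93048143-93048442, minus strand: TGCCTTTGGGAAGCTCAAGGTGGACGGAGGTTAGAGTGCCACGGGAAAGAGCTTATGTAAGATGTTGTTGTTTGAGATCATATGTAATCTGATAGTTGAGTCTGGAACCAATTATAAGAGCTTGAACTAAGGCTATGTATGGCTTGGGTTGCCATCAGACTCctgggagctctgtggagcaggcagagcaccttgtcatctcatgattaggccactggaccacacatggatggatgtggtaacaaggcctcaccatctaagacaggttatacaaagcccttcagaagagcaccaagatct
Ces1e, chr8:93229570-93229869, minus strand: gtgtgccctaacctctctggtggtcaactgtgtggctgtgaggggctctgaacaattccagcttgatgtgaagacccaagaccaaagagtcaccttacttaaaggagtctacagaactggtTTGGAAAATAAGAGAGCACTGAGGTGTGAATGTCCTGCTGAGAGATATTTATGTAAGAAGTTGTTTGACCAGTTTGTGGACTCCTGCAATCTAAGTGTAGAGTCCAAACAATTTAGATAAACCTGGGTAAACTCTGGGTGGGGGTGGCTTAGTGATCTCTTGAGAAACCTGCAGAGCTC
Cyp4f40, chr17:32658777-32659076, plus strand: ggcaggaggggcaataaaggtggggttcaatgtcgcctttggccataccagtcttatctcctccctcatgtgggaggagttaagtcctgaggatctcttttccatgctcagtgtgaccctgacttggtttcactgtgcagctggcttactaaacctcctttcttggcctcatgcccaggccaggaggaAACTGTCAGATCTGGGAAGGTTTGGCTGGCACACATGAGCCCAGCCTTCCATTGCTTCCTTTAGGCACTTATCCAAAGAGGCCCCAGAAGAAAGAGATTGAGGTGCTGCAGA
The peak covered 151 bases of the window of Ugt1a1, 162 of Ces1a, 179 of Ces1e and 112 of Cyp4f40, but only 15 of Cyp4f15 and 6 of Cyp3a41a, whose windows are not shown.

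These promoters were poor in CpG. The windows shown held 2 CpG at Ugt1a1, 2 at Ces1a, 0 at Ces1e and 1 at Cyp4f40. Over all 123 windows of the 112 family genes the median was 2 CpG (quartiles 1 and 4), against 13 (quartiles 4 and 24) over 21262 windows of 17491 protein-coding genes. Windows with 10 or more CpG made up 8.94% in the families and 56.7% in all genes. Such a window belonged to 11 family genes, among them Ugt8a (40 CpG), the galactosylceramide synthase gene of myelin, Cyp46a1 (31), the cholesterol hydroxylase gene of the brain, Cyp51 (28), of cholesterol synthesis, and Cyp26a1 (26), of retinoid breakdown. Of these 11 genes 1 had a peak in either list, Cyp4f39, whose window held 11 CpG and no peak. Family genes with a peak and those without had the same median, 2 CpG.

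**Figure D1:**
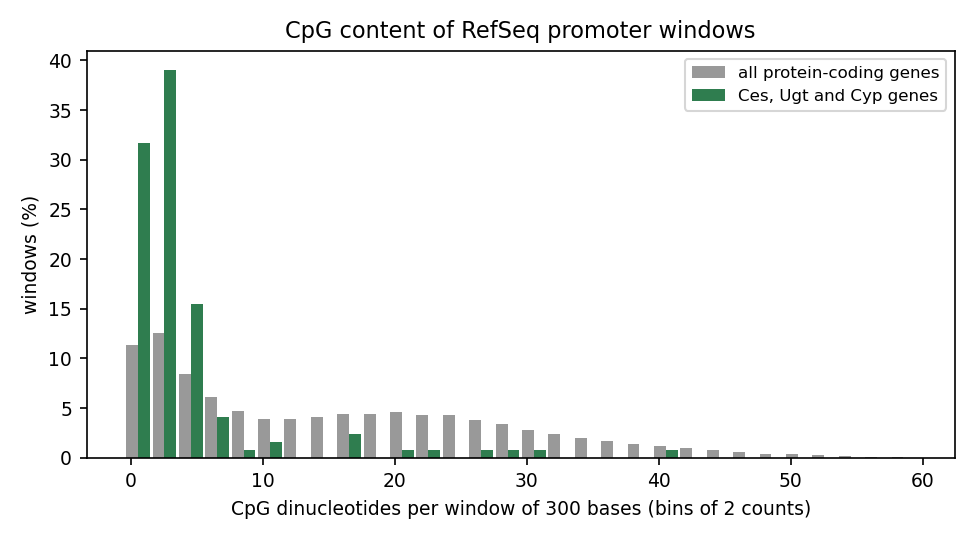
CpG dinucleotides per RefSeq promoter window of 300 bases (x axis, bins of 2 counts) against the share of windows in percent (y axis), for 123 windows of Ces, Ugt and Cyp genes (green) and 21262 windows of all protein-coding genes (grey). The family windows lie at the low end, with a median of 2 against 13.

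The windows were searched on both strands for 4 short motifs, of which none contains another. TATAAA is a core promoter element, GCGTG the core of the site of the dioxin receptor Ahr, GTTAAT a part of the site of the liver factor HNF1, and CCAAT the motif of nuclear factor Y. TATAAA was held by 32.5% of family windows and 12.6% of all windows, GTTAAT by 15.4% and 6.25%, GCGTG by 17.9% and 38.5%, and CCAAT by 44.7% and 38.2%. GCGTG contains a CpG, in which the family windows were poor, and the part of this in its share was not tested. In the window of Ugt1a1 GTTAAT lay at -41 from the start, under the irradiated peak, read on the opposite strand. CCAAT was found under the irradiated peak of Ces1a, at -143 from the start. The windows of Ces1e and Cyp4f40 held none of the 4 sequences. A match describes the letters and is not evidence of a bound factor.

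A peak of any strength lay at 23 of the 140 genes in the control list (16.4%, 10.7 to 23.6) and at 29 in the irradiated list (20.7%, 14.3 to 28.4), where 6.05% and 8.19% of all protein-coding genes had one. Both lists had a peak at 19 genes (13.6%), against 3.67% of all genes. The control list alone had one at 4 genes (2.86%, against 2.38%) and the irradiated list alone at 10 (7.14%, against 4.53%). Neither list had one at 107 genes. The 9 Ugt1a genes overlap and share their peaks. Counted as 1 locus they left 15 of 132 loci with a control peak (11.4%, 6.501 to 18.0) and 21 with an irradiated peak (15.9%, 10.1 to 23.3). The q is the p of the peak adjusted over the genome by the authors' caller. At a q of at most 0.05, control peaks lay at 2 genes (1.43%, 0.173 to 5.07), against 0.516% of all genes. Irradiated peaks lay at 3 genes (2.14%, 0.444 to 6.13), against 2.08%. With a −log10 p of at least 5, control peaks lay at 3 genes (2.14%, 0.444 to 6.13), against 0.859%. Irradiated peaks lay at 8 genes (5.71%, 2.50 to 10.9), against 3.27%. Each of these intervals held the share of all genes, but they rest on few genes and cannot show whether the shares differ. Most of the counts thus rest on weak peaks, as did those of all genes. Of 1325 protein-coding genes with a control peak, 113 had one with a q of at most 0.05. Of 1794 with an irradiated peak, 455 had one.

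The family genes were a little longer than others, with a median of 22.7 kb against 17.1 kb, and longer genes have more room for a peak. Outside Ugt1a, family genes with a peak had a median of 22.4 kb, and family genes without a peak 21.6 kb. The part of gene length in the counts was not tested. Per length, the family genes with 2000 bp on either side held 6.67 control peaks per Mb (4.39 to 9.70) and 8.40 irradiated peaks per Mb (5.81 to 11.7). The same measure was 2.87 and 5.59 over all protein-coding genes outside the Y chromosome and mitochondria. Without chromosomes 15, 6 and 11, where peaks were most frequent in both lists, it was 5.45 (3.38 to 8.34) and 6.75 (4.41 to 9.89) in the families and 1.77 and 3.63 in all genes.

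Between the lists, 34 irradiated stood against 27 control peaks at these genes, a ratio of 1.26. Its counting interval, 0.737 to 2.17, held both 1 and the ratio of the whole lists, 1.63. With the same number of peaks taken from each list the order turned, to 27 control and 23 irradiated peaks.

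**Figure D2:**
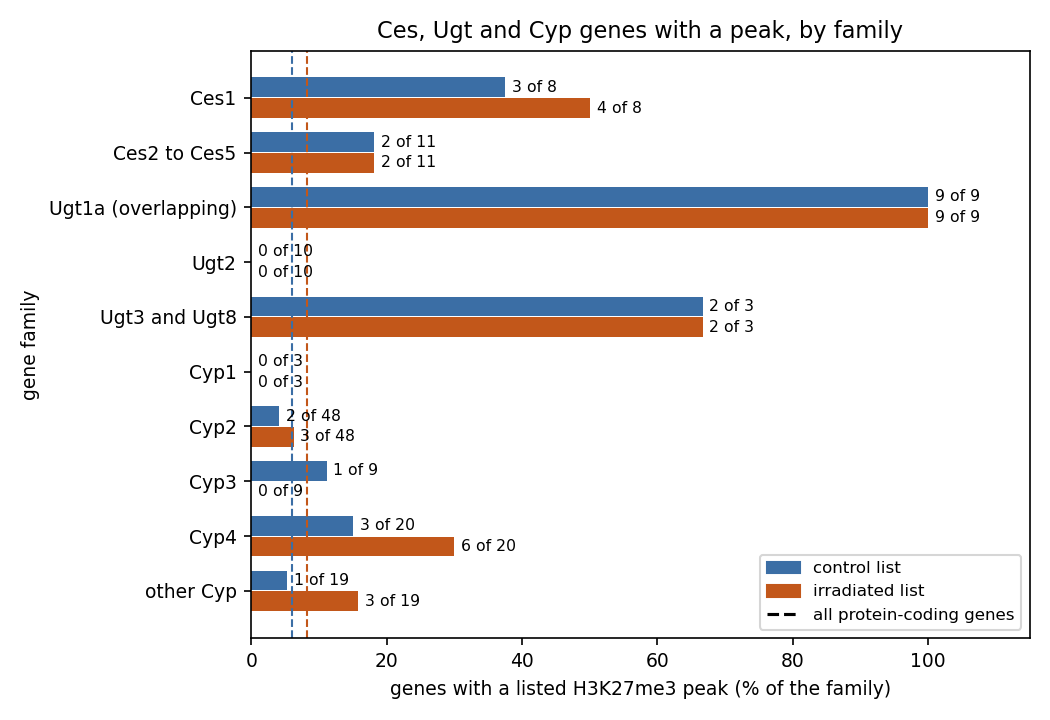
Share of the genes of each family with a listed H3K27me3 peak (x axis, percent), in the control list (blue bars) and the irradiated list (orange bars), with the number of genes beside each bar. Dashed lines give the share of all protein-coding genes, 6.05% (control) and 8.19% (irradiated); the Ugt1a, Ugt3 and Ugt8, Ces1, Ces2 to Ces5 and Cyp4 rows lie above the line of their list in both lists, and the Ugt2, Cyp1 and Cyp2 rows below.

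The peaks were counted by family, with no test between families. In the xenobiotic P450 family Cyp2, control peaks lay at 2 of 48 genes and irradiated peaks at 3 (4.17% and 6.25%), near the 6.05% and 8.19% of all genes. The 15 Cyp2c, 7 Cyp2j and 4 Cyp2a genes had none in either list. No peak was listed at the 10 genes Ugt2a and Ugt2b, which conjugate steroids and bile acids, at the 8 Cyp4a genes of fatty acid hydroxylation, or at the 3 Cyp1 genes, the dioxin-induced P450 genes. Each of these groups is too small for a count of 0 to be told apart from the shares of all genes. Peaks were listed at 3 and 4 of the 8 Ces1 genes, at 3 and 5 of the 9 Cyp4f genes, at both Ugt3a genes and at the whole Ugt1a locus. The genes of bile acid synthesis (Cyp7a1, Cyp7b1, Cyp8b1, Cyp39a1) and of vitamin D and retinoid breakdown (Cyp24a1, Cyp26a1, Cyp26b1, Cyp26c1) had no peak in either list.

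The Ugt1a locus (chromosome 1, 88055411 to 88220002) uses many alternative first exons that are spliced to 1 shared 3' part, and it encodes the enzymes of bilirubin and phenol glucuronidation. It held 5 control and 3 irradiated peaks. On chromosome 1 as a whole, 9 of 11 family genes, the Ugt1a genes, had a peak in each list, against 7.23% and 10.5% of its protein-coding genes. As the 9 genes are 1 overlapping locus, this count repeats the same peaks and cannot be compared with those shares. All but 1 of the Ugt1a peaks lay within 2000 bp of Ugt1a1, the bilirubin enzyme gene at its 3' end (88211959 to 88220002), and so are common to the 9 genes. At the start of Ugt1a1 a control peak (88212328 to 88212973) had 17 ChIP reads at its summit and a fold of 2.797 over the background, and the irradiated peak that contains it (88211858 to 88212992) had 22 reads, a fold of 3.30 (q 0.0536). A pair just past the shared end overlapped by 288 bp, with folds of 2.88 in the control list (88220349 to 88220686) and 3.36 in the irradiated list (88220399 to 88220817). Between them lay 2 further control peaks, with folds of 2.81 and 2.97, and before Ugt1a1 an irradiated one with a fold of 3.38. The remaining control peak (88139226 to 88139551), 4524 bp past the start of Ugt1a6a, rested on 7 reads, with a fold of 2.78 (q 1).

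These 3' peaks stood on raised background. The local background recovered for the Ugt1a peaks reached 3.32 scaled reads in the control list, where the lowest was 0.918, and 3 in the irradiated list, where the lowest was 0.704. It was at least 1.5 times the lowest at 4 of the 5 control and all 3 irradiated peaks, against 14.9% of all control and 26.4% of all irradiated peaks. The part of this background in the Ugt1a counts was not tested. Without peaks on such a background, 15 of the 29 genes with an irradiated peak remained, and the 14 lost were the 9 Ugt1a genes with Cyp11b1, Cyp17a1, Cyp19a1, Cyp2d9 and Cyp4f15. In the control list 19 of 23 remained, without Ugt1a1, Ugt1a2, Ugt1a5 and Cyp17a1.

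**Figure D3:**
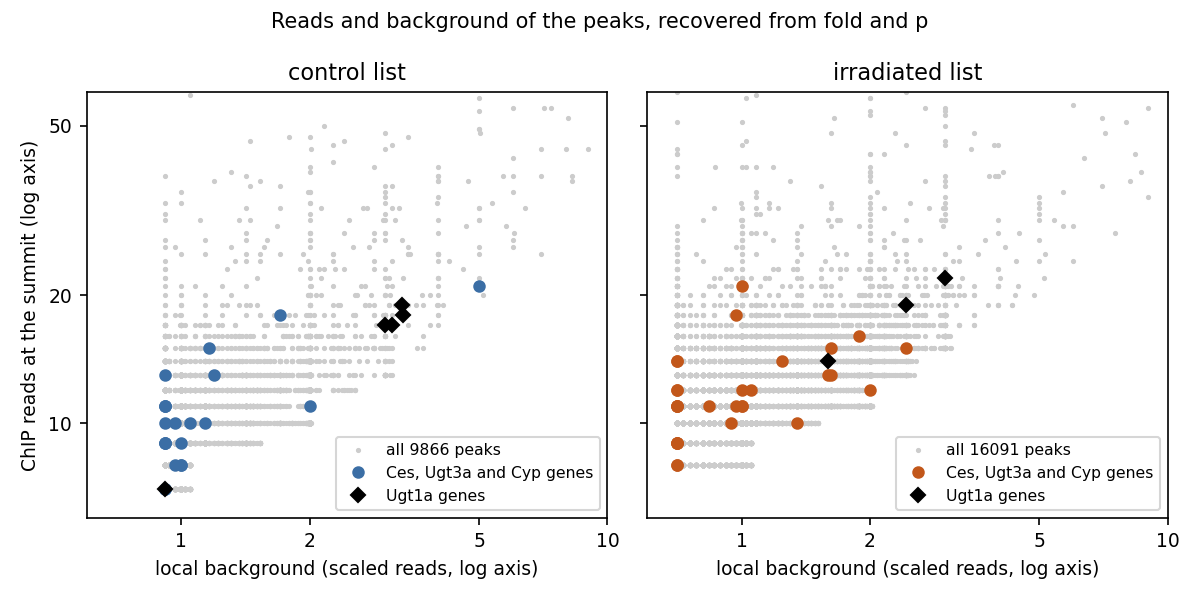
Local background in scaled reads (x axis, log) against ChIP reads at the summit (y axis, log) for each peak, both recovered from the deposited fold and p; all peaks are grey, peaks at Ces, Ugt3a and Cyp genes coloured and peaks at Ugt1a genes black diamonds. Axes end at 10 scaled reads and 60 reads, so the highest peaks are not drawn; the Ugt1a background reaches 3.32 (control list) and 3 (irradiated list), and the control peak at Cyp17a1, at 5.00, lies furthest right of the family peaks.

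Just outside the 2000 bp window lay a peak that in the irradiated list was stronger than those at the locus. This peak, 3049 bp past the end of the locus (88223051 to 88224666), had 30 reads and a fold of 6.52 (q 3.51e-07) in the irradiated list. The control peak at the same place (88223041 to 88224538) had 26 reads, but over a background of 6 scaled reads, and a fold of 2.44 (q 0.472), below the folds of the 5 control peaks at the locus. No protein-coding gene lay within 2000 bp of either.

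The Ugt3a genes, whose enzymes transfer other sugars than glucuronic acid, held the peak of lowest q at any family gene in each list. Ugt3a1 (chromosome 15, 9279822 to 9315038) had 5 control and 3 irradiated peaks. Its highest irradiated peak (9309412 to 9309802), 29795 bp past the start, had 21 reads, a fold of 6.31 (q 3.86e-05), and the next (9306382 to 9306791) a fold of 5.56 (q 0.00174). Its highest control peak (9310512 to 9310819) had 13 reads, a fold of 4.72 (q 0.0157) and lay 710 bp from the highest irradiated one. At 1 site both lists had a peak (9293959 to 9294289 in the control, 9293903 to 9294335 in the irradiated list). There the control fold was the higher one, 4.495 with a q of 0.00797 against 2.78 with a q of 0.672. Both peaks of this site stood on raised background, 1.70 (control) and 1.35 (irradiated) scaled reads, or 1.86 and 1.92 times the lowest. The other 3 control peaks of Ugt3a1 had folds of 3.51 to 4.08 and no irradiated peak over them.

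Its neighbour Ugt3a2 (9335551 to 9370955) had 1 control and 2 irradiated peaks. The control peak (9337741 to 9338024) had 13 reads, a fold of 4.13 (q 0.0709), and met an irradiated peak (9338004 to 9338273, fold 3.36, q 0.359) by 21 bp. The other irradiated peak had a fold of 3.51 (q 0.537). Over the 95.1 kb of both genes with 2000 bp on either side there were 6 control and 5 irradiated peaks, or 63.1 and 52.6 per Mb, where the whole chromosome 15 had 22.2 and 27.9. On this chromosome, control peaks lay at 2 and irradiated peaks at 5 of 12 family genes, against 17.5% and 20.2% of its protein-coding genes.

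**Figure D4:**
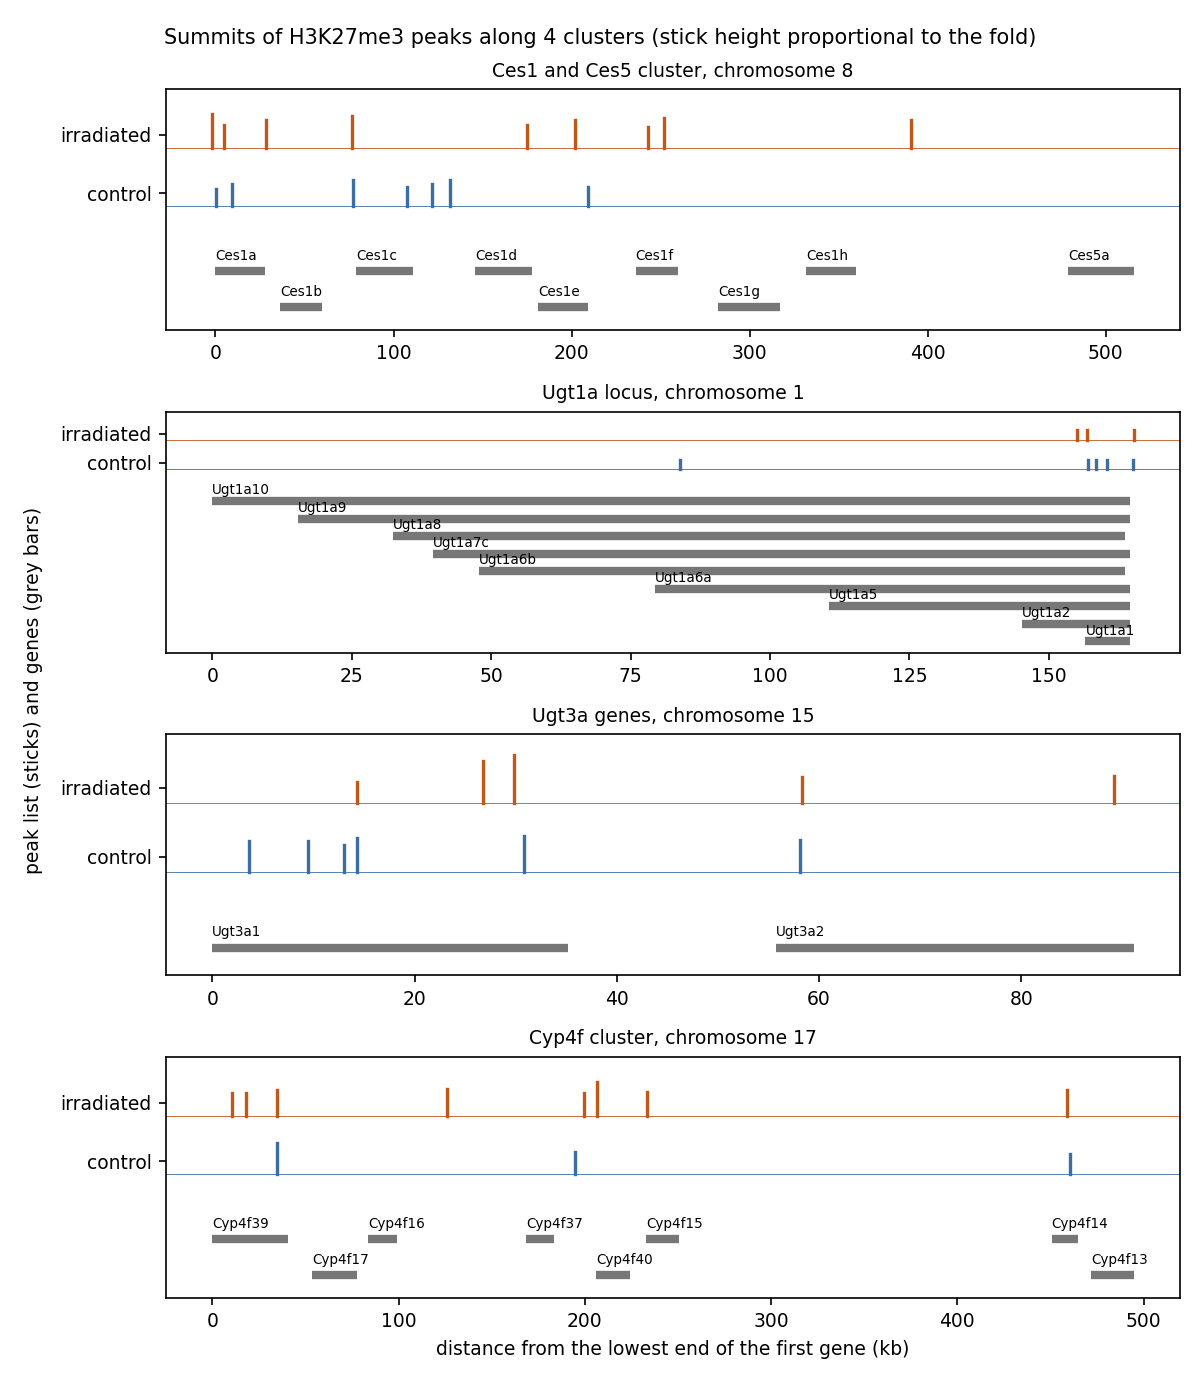
Summits of peaks (sticks, height proportional to the authors' fold) of the control list (blue) and the irradiated list (orange) along 4 clusters of family genes (grey bars); the x axis gives the distance from the lowest end of the first gene in kb, on a scale of its own in each panel. Peaks of the Ugt1a locus gather at its shared 3' end, and those of the Ces1 cluster are spread over Ces1a to Ces1f.

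The Ces1 genes and Ces5a form a cluster of 9 genes on chromosome 8 (93020214 to 93535879). It held 7 control peaks, 5 of them at a gene, and 9 irradiated peaks, 7 of them at a gene. This is 13.5 and 17.3 per Mb, where chromosome 8 as a whole had 3.17 and 5.39. Ces1a (93020214 to 93048192), read from the minus strand, had 2 control peaks, with folds of 2.61 (11 reads, q 1) and 3.43 (9 reads, q 0.831), and 3 irradiated peaks. The strongest irradiated one (93018258 to 93018618) lay 1596 bp beyond the 3' end of the gene, with 14 reads, a fold of 5.14 (q 0.0119). The one over the promoter window shown above (93048281 to 93048550) had 11 reads, a fold of 4.16 (q 0.0536), and the last a fold of 3.51. None of the 5 peaks overlapped one of the other list.

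Ces1e (93201218 to 93229631), which encodes the egasyn that holds beta-glucuronidase in the endoplasmic reticulum, had 1 peak in each list, at different sites. The control peak (93229465 to 93229748) lay on its start, with 8 reads, a fold of 2.98 (q 1), and the irradiated peak (93221697 to 93222174) lay 7730 bp past the start, with 11 reads, a fold of 4.16 (q 0.0536). Ces1c (93099015 to 93131283), whose product circulates in mouse plasma, had 2 control peaks, with folds of 4.08 (11 reads, q 0.385) and 2.98 (8 reads, q 1), and no irradiated peak within 2000 bp. An irradiated peak 2125 bp from the gene (93096621 to 93096890, fold 4.81, q 0.0119) lay just outside the window, and with 5000 bp Ces1c had a peak in both lists. Ces1d, a triglyceride hydrolase gene (93166072 to 93197804), had 1 irradiated peak with a fold of 3.51 (9 reads, q 0.537), and Ces1f (93256236 to 93279766) 2, with folds of 3.19 and 4.49. The control list had none at either gene.

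In the second carboxylesterase cluster of chromosome 8 (104734003 to 105150109, Ces2a to Ces4a), 6 control and 4 irradiated peaks were listed. Ces3b (105083733 to 105093929) had 2 in each list. Its control peaks had folds of 3.29 and 3.37 (9 and 10 reads) and its irradiated peaks 3.82 and 4.49 (12 reads each, lowest q 0.0536). A control and an irradiated peak met there by 21 bp. Ces2a (104734003 to 104741634) had 2 irradiated peaks, with folds of 4.16 and 3.51, and no control peak within 2000 bp. Just outside that window lay 2 control peaks, 2682 and 3606 bp from Ces2a, with folds of 3.43 and 2.78. Ces2f (104947355 to 104961130) had 1 control peak, with a fold of 3.75 (10 reads, q 0.385). Over the whole of chromosome 8, 6 and 7 of 21 family genes had a peak in the control and irradiated list, against 5.47% and 8.64% of its 1042 protein-coding genes.

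The Cyp4f genes hydroxylate leukotrienes and long fatty acids. Their cluster on chromosome 17 (32452697 to 32947415) contained 3 control peaks and 8 irradiated peaks, or 6.02 and 16.0 per Mb, where the chromosome had 1.73 and 3.65. Cyp4f39 (32452697 to 32493320), which serves the lipid barrier of the skin, had 1 control peak (32487024 to 32487343) with 15 reads, a fold of 4.76 (q 0.0126). An irradiated peak overlapped it by 123 bp (32487221 to 32487556, 14 reads, fold 3.90, q 0.0927), and 2 more irradiated peaks in the gene had folds of 3.55. Of the 2 listed starts of Cyp4f40 (32658886 to 32676919), 1 (32659027) lay under its 1 irradiated peak (32658965 to 32659698). This peak had 14 reads, a fold of 5.14 (q 0.0119), and Cyp4f40 had no control peak. Its neighbour Cyp4f15 (32685631 to 32703352) also had an irradiated peak by its start, 223 bp past it at the summit, with 15 reads, a fold of 3.55 (q 0.0962), over a background of 1.62 scaled reads. Cyp4f14 (32903357 to 32917376) had 1 peak in each list at different sites, with folds of 3.03 in the control (q 1) and 3.86 in the irradiated list (q 0.0597).

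Cyp4f18, a leukotriene hydroxylase gene of neutrophils, lies apart on chromosome 8 (71988482 to 72009668). Before its start, 1215 and 1349 bp beyond the gene, both lists had a peak, the control one (72010883 to 72011346) with 10 reads and a fold of 3.66 and the irradiated one (72011017 to 72011397) with 11 reads and a fold of 3.596, overlapping by 330 bp. Cyp4x1, a P450 gene of the brain (chromosome 4, 115106323 to 115134079), had 1 irradiated peak with 11 reads, a fold of 4.16 (q 0.0536), and no control peak. On chromosome 17 as a whole, 2 and 4 of 11 family genes had a peak, against 3.68% and 7.08% of its protein-coding genes.

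In the drug-metabolising families Cyp2 and Cyp3, Cyp2e1, the ethanol and acetaminophen oxidase gene (chromosome 7, 140763819 to 140774990), had a peak in both lists. Its 2 control peaks (140768982 to 140769520 and 140770960 to 140771243) had 9 reads and a fold of 3.43 each, and the irradiated peak (140769269 to 140769538), which overlapped the first by 252 bp, had 8 reads and a fold of 3.19. Cyp2b10, the phenobarbital-induced gene (chromosome 7, 25897658 to 25926624), and Cyp3a41a (chromosome 5, 145694049 to 145720136) each had 1 control peak of 7 reads, the fewest of any control peak, with a fold of 2.78 (q 1). Cyp2d9, a testosterone hydroxylase gene of the male liver (chromosome 15, 82452377 to 82456827), had 1 irradiated peak of 16 reads with a fold of 3.41 over a background of 1.89 scaled reads, and Cyp2d11 (82389154 to 82394022) 1 with a fold of 3.72, its nearest end 1964 bp from the gene. The Cyp2d cluster (82370527 to 82794452) held 5 control and 8 irradiated peaks, of which 0 and 2 lay at a gene, and at 11.7 and 18.7 per Mb it lay below chromosome 15 as a whole. The cluster Cyp3a57 to Cyp3a59 held 8 control and 2 irradiated peaks, of which 1 and 0 lay at a gene. This is 10.3 and 2.58 per Mb, where chromosome 5 had 4.06 and 7.28. The Cyp2c cluster had 0.844 per Mb in each list, against 2.21 and 4.62 on chromosome 19. The cluster Cyp2s1 to Cyp2t4 had 1.47 and 0.735, against 1.82 and 3.96 on chromosome 7.

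Copies of these genes can be close to identical. The promoter window of Cyp3a41a shared 292 of 300 bases, position by position, with that of Cyp3a41b and 277 with that of Cyp3a44. The windows of Cyp4f15, Cyp4f40 and Ugt1a1, compared in the same way, shared at most 107, 85 and 86 bases with a relative. The sources used here do not give how reads that match several copies were treated. A peak in a cluster of near-identical copies may thus belong to another copy, and the part of this in the counts was not tested.

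Among the P450 genes of steroid hormone synthesis control peaks lay at 1 of 6 and irradiated peaks at 3 of 6, where 6.05% and 8.19% of all genes had one. All of these peaks stood on a background at least 1.5 times the lowest, and without such peaks 0 of the 6 genes had one in either list. The part of the background in this count was not tested. Cyp17a1 (chromosome 19, 46667165 to 46673000), whose enzyme leads to androgens, had a control peak (46672465 to 46672790) of 21 reads, the most at any family gene in that list. This control peak stood over a background of 5.00 scaled reads, so that the fold was 2.34. The irradiated peak that contains it (46672307 to 46673123) had 15 reads over 2.43 scaled reads, a fold of 2.71 (q 0.537). Another irradiated peak (46669027 to 46669628) had a fold of 3.16 over 1.59 scaled reads, a background for which more than 1 solution was found. Cyp19a1, the aromatase gene (chromosome 9, 54165937 to 54268164), had 1 irradiated peak with a fold of 2.55 (q 0.915), over a background of 2.00 scaled reads. Cyp11b1, of corticosterone synthesis (chromosome 15, 74834892 to 74841643), had 1 irradiated peak with a fold of 3.13, which lay also within 2000 bp of Gml2. Its recovered background was 1.62 scaled reads, a value for which more than 1 solution was found as well.

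**Figure D5:**
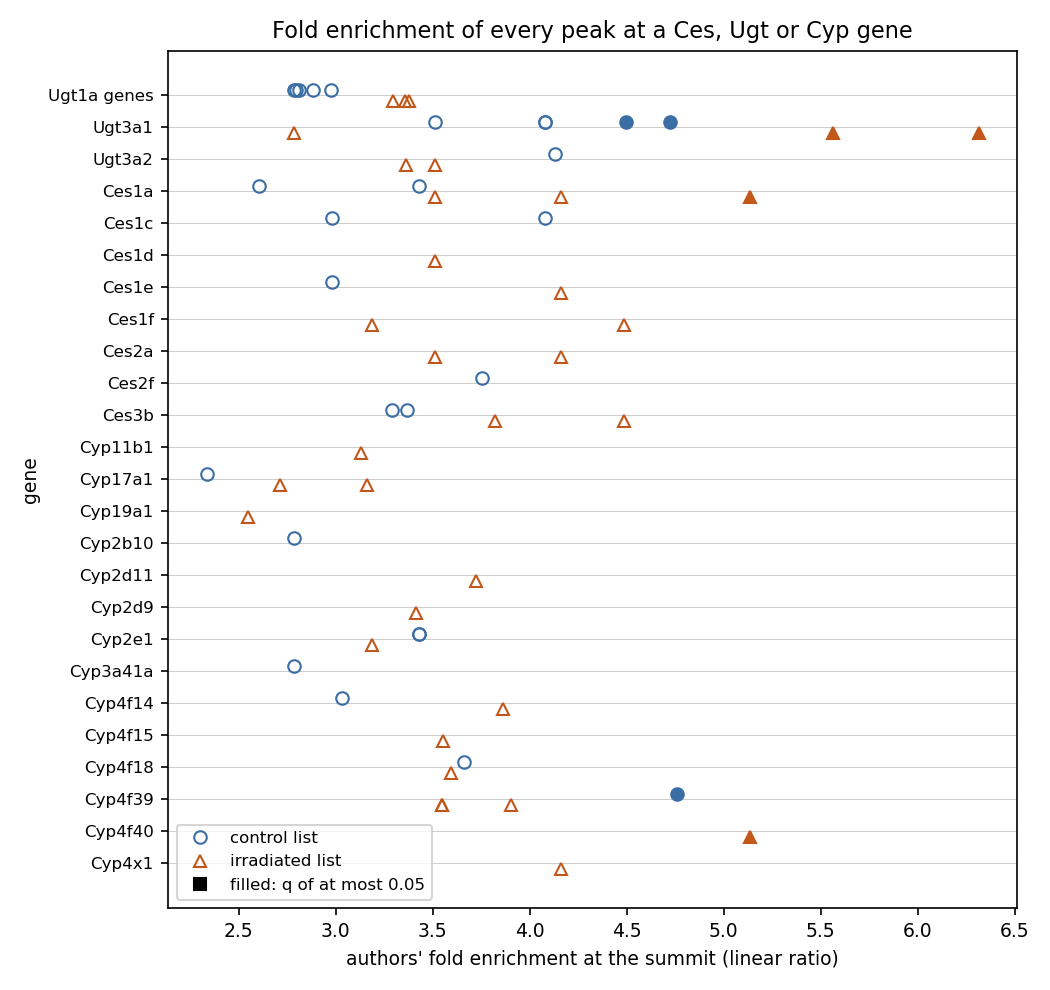
Authors' fold enrichment at the summit (x axis, linear ratio) of every peak at each family gene with a peak (rows), for the control list (blue circles) and the irradiated list (orange triangles); filled symbols have a q of at most 0.05, and the Ugt1a genes share 1 row. Most folds lie between 2.5 and 4.5, and the 7 filled symbols belong to Ugt3a1, Ces1a, Cyp4f39 and Cyp4f40.

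As single peaks they had about the median values of the lists. Their median fold was 3.37 in the control list, against 3.43 over all control peaks, and 3.55 in the irradiated list, against 3.67. The median number of reads at the summit was 10 against 10 in the control and 12 against 11 in the irradiated list. A q of at most 0.05 was reached by 3 of 27 control peaks (11.1%) and 4 of 34 irradiated peaks (11.8%), against 6.84% and 15.2% of all peaks. In position, 24 control and 28 irradiated peaks touched a gene and the others lay within 2000 bp of one. A start was listed for a gene of 25 peaks in each list, and the summit lay within 1000 bp of a start for 3 of the control and 4 of the irradiated ones.

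Overlap with the other list by at least 1 bp was found for 9 of the 27 control peaks (33.3%, 16.5 to 54.0) and 9 of the 34 irradiated peaks (26.5%, 12.9 to 44.4), where 21.4% of all control and 13.3% of all irradiated peaks overlapped. With a reciprocal overlap of 50% it was 4 peaks in each list (14.8% and 11.8%, against 12.03% and 7.38%). The 9 pairs lay at Ugt1a (2 pairs), Ugt3a1, Ugt3a2, Ces3b, Cyp2e1, Cyp4f18, Cyp4f39 and Cyp17a1. The irradiated fold was between 0.619 and 1.18 times the control fold, with a median of 0.982, and it was the higher one in 4 of the 9. The lists were scaled separately, so these ratios are no measure of a change. Of the 19 genes with a peak in both lists, 16 shared a site and Ces1a, Ces1e and Cyp4f14 did not. Of the 16, 9 are the overlapping Ugt1a genes with the same 2 pairs, and with these as 1 locus it was 8 of 11 loci (72.7%, 39.0 to 94.0). Of all 803 protein-coding genes with a peak in both lists, 338 shared a site (42.1%), with overlapping genes each counted. The peaks without a partner lay at a median of 3526 bp (18 control peaks) and 15770 bp (25 irradiated peaks) from the nearest peak of the other list.

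The regulators and partners of these enzymes were read from lists of their own. Of 22 receptors and liver transcription factors, control peaks lay at 3 and irradiated peaks at 4, both kinds at 2, against 6.05% and 8.19% of all genes. Ppara, the fatty acid receptor gene (chromosome 15, 85734910 to 85806851), had 5 irradiated peaks, with a highest fold of 4.16 (q 0.0498), and 1 control peak, with a fold of 3.23 (q 0.831). On chromosome 15, 17.5% and 20.2% of protein-coding genes had a control and an irradiated peak. Nr5a2, a regulator gene of bile acid synthesis, had 3 peaks in each list, with highest folds of 3.11 and 3.84. Hnf4a, a master regulator gene of the liver, had 2 irradiated peaks with a highest fold of 3.84 (q 0.149) and no control peak. Nr1i2, the xenobiotic receptor gene that induces Cyp3a, had 1 control peak with a fold of 3.29 (q 0.831) and no irradiated peak. Among the 22 genes only Ppara had a peak with a q of at most 0.05. Ppara, Nr5a2, Hnf4a and Nr1i2 span 71.9, 118, 66.1 and 46.5 kb, where the median of all genes was 17.1 kb. The part of gene length in this count was not tested. Of 12 electron donor genes, Por, the P450 reductase gene, had 1 irradiated peak with a fold of 2.64 (q 0.915), and the others had none in either list.

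Of 44 other genes of the first phase of detoxification, control peaks lay at 5 and irradiated peaks at 5 (11.4% in each list), both kinds at 3, where 6.05% and 8.19% of all genes had a peak. The aldehyde oxidase genes Aox3 and Aox4, neighbours on chromosome 1, had 1 control peak each, with folds of 3.95 and 2.97, and 5 and 4 irradiated peaks, with highest folds of 4.49 and 3.92, both with a q of 0.0536. Their neighbour Aox2 had 2 irradiated peaks with a highest fold of 3.6001, and Ephx2, the soluble epoxide hydrolase gene, 1 control and 3 irradiated peaks, with highest folds of 4.08 and 3.92. Of 54 genes of the second phase, 3 had a peak in each list, and this 5.56% lay near or below the shares of all genes. Both lists had a peak at Gstm4 and Gstt4, of glutathione transfer, with control folds of 3.39 and 3.79 and highest irradiated folds of 3.84 and 3.82. Mgst1 had 2 control peaks with a highest fold of 3.91, and Gsta2 1 irradiated peak with a fold of 3.26. Of 48 genes of hepatocyte plasma proteins, control peaks lay at 3 (Fetub, Plg and C9) and irradiated peaks at 2 (Ambp and Serpina6), or 6.25% and 4.17%, also near or below those shares. Their highest fold was 4.40, of the control peak at Fetub (q 0.0823). Plg had a fold of 3.25, Ambp of 3.25, Serpina6 of 3.51 and C9 of 2.72 (q 1), the last over a background of 1.87 scaled reads.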

How the data were processed

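The members and lists were chosen with earlier results of these data known. Per the labels' protocols, formaldehyde-fixed chromatin was sonicated and precipitated with an antibody against H3K27me3, and BWA, deepTools and mm10 appear in the submitters' processing notes. The sources used here give neither the peak caller nor its settings. The authors deposited 1 list of peaks per H3K27me3 library, with each peak's bounds and summit as positions in bp. They also deposited a score, 10 times the −log10 p cut to a whole number, and a ratio, the fold of the summit over the caller's local background. Further deposited columns hold the −log10 p-value, unadjusted, and the −log10 q-value, adjusted by the caller. No p exceeded 0.00495 (control) or 0.00499 (irradiated).

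Further summits of 1 interval (215 and 679 lines) were merged. Reads and background were recovered from fold and p under a Poisson model for 100% of peaks (tolerance 0.003 in −log10 p), with more than 1 solution for 0.0304% and 1.04%; library depth is unknown. On 2862 and 2868 peaks simulated under the same Poisson model from the recovered values, the recovery returned the right reads for 100%. This checks the calculation only and cannot show whether the caller used that model. Named genes were all with a peak in both lists, the 10 with most peaks, the 8 per list with the lowest q, all with a peak over the promoter window, and up to 4 per other list by lowest q. Other genes with few peaks are named to complete counts, chosen after their values were seen. Clusters join members less than 500 kb apart. Promoters came from RefSeq, GRCm38.p6; exons were not resolved. Gsta13, Tf and C5 of the other lists had no match. Intervals are Clopper-Pearson for shares and exact Poisson for densities. Python 3.11.15, pandas 2.3.3 and scipy 1.17.1 were used.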

Additional observations from a re-analysis of the deposited data

How the results depend on the processing

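Of 50 values recomputed under other settings, 38 stayed within 1.5 times the value reported. Limited to a q of at most 0.05, 2 genes (1.43%) with 3 control peaks and 3 genes (2.14%) with 4 irradiated peaks were left. The shares of all genes were 0.516% and 2.08%. With a −log10 p of at least 5 it was 3 genes (2.14%) with 4 control peaks and 8 genes (5.71%) with 10 irradiated peaks. The shares of all genes were then 0.859% and 3.27%. Without peaks over a raised background 15 genes had an irradiated peak. With the Ugt1a genes as 1 locus, chosen after seeing the data like the setting without chromosome 15, 15 had a control peak. A reciprocal overlap of 50% left 4 control and 4 irradiated peaks shared. These alternatives use fewer peaks or loci by construction. Equal numbers of peaks, the 9866 strongest of each list, gave 27 control and 23 irradiated peaks at 23 and 24 genes. Windows of 0, 500 and 5000 bp, summits in place of intervals, unmerged lines, merging within 1000 bp and leaving out chromosome 15 kept all 4 counts within 1.5 times. No paired analysis was possible because each group has 1 library, and none could be left out. At 7 or 8 reads for the weakest peaks, a gene without a listed peak may carry the mark below the threshold.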
